A study of Mus musculus with 26 samples.

Results

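CTCF peaks called in CTCF M-ChIP-NC, the unconverted control of the methylation-aware ChIP, were compared with those of CTCF ChIP made with the commercial Nextera transposase, in 4 of the 26 samples of the series. The members were the distinct peak regions of CTCF M-ChIP-NC replicates 1 and 2 and of CTCF ChIP replicates 1 and 2, merged where they shared at least 1 bp into 51679 union regions. A union region was assigned to a class by the samples that held a peak there. The all-4 class held 19567 union regions, the ChIP-only class (both CTCF ChIP samples and no CTCF M-ChIP-NC sample) 8650, and the NC-only class (both CTCF M-ChIP-NC samples and no CTCF ChIP sample) 4, together 28221 of the 51679. The remaining 12 patterns were counted but not used as classes.

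All 4 samples came from KH2 mouse embryonic stem cells (mESC), a single line of pluripotent cells grown with serum and LIF on feeder cells that were removed by pre-plating. Chromatin was sonicated and pulled down with the same CTCF antibody, and the DNA on the beads was cut and tagged with Tn5 transposase (ChIPmentation). In CTCF ChIP this was the commercial Nextera transposase. In CTCF M-ChIP-NC it was EZ-Tn5, assembled with methylated adaptors. The CTCF M-ChIP-NC libraries were made from a small aliquot of the tagged DNA, set aside before the bisulfite conversion that yields CTCF M-ChIP. Neither group was therefore converted. That DNA had also passed through the exchange of an adaptor oligonucleotide and the repair of gaps, so the groups differ in more than the adaptor. The methods give different PCR mixes for ChIP-seq and for converted libraries, and do not say which served the unconverted aliquots. No genotype, drug or time point differed between the groups. Nothing in the labels or methods says whether the replicates were separate cultures, so p-values measure only the spread between these samples.

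CTCF is a zinc finger protein that binds a long, well conserved DNA motif and acts at insulators. It stops cohesin as this ring-shaped complex extrudes chromatin, and so anchors many loops and domain borders. Methylation of CpGs inside the motif is known to weaken its binding. The question behind the comparison was whether a transposase loaded with methylated adaptors recovers the binding sites that a standard library recovers.

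The cells carried the transcripts of pluripotent cells in the authors' merged expression table. Pou5f1, which encodes the core pluripotency factor OCT4, stood at 657 TPM. Ctcf itself stood at 82.9 TPM, while Ctcfl, its germ-line paralog, stood at 0.91 TPM.

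The motif matches below are shown because they are where the comparison can be read base by base. Capitals mark the best-scoring CTCF motif match within 100 bp of the strongest summit, lower-case letters the 5 reference bases on each side, all from GRCm38 and written 5′ to 3′ on the strand of the motif. The first 3 lie in the NC-only regions that had a match. The next lies in a ChIP-only region at Pink1, the gene of a mitochondrial kinase. After it comes the all-4 region with the highest mean fold enrichment, at 2610005L07Rik. The last 3 are at genes singled out in the study, of which Klf4 encodes a pluripotency factor and Slc5a8 a monocarboxylate transporter.
Exoc6b, chr6:85002874-85002892, minus strand: cacagAGGCCAGAAGAGGGCATTGgatcc
Gm17019, chr5:15006924-15006942, plus strand: caactGTTCCACTAGGTGGCGATCttaga
Acbd5, chr2:23098315-23098333, plus strand: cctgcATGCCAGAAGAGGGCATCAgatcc
Pink1, chr4:138316545-138316563, plus strand: cggagAGGCCAGAAGAGGGCGCCAgatct
2610005L07Rik, chr8:20424866-20424884, minus strand: tatagGGGCCACCAGAGGGCGCGAggcgg
Klf4, chr4:55530446-55530464, minus strand: agcctCAGCCGCCAGGTGGCGGGCtgatg
Pisd-ps1, chr11:3123327-3123345, minus strand: cccacAGGCCAGCAGAGGGCGCACtcggc
Slc5a8, chr10:88885025-88885043, minus strand: agtggAGGCCAGAAGGGGGCATCAgattg

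The libraries differed in depth, which was read from the peak lists themselves. The peak caller writes for each summit a fold enrichment and a −log10 p-value that together fix the whole number of reads piled up there and the local background. A whole number was recovered for 99.9% of summits in CTCF M-ChIP-NC replicate 1 and for 100% in the other 3 samples. The genome-wide background was 0.184 and 0.225 reads in CTCF M-ChIP-NC replicates 1 and 2 against 0.938 and 0.985 reads in CTCF ChIP replicates 1 and 2. Relative to CTCF M-ChIP-NC replicate 1, the Nextera libraries were therefore 5.10 and 5.36 times as deep. The smallest summit called had 4 reads in each CTCF M-ChIP-NC sample and 7 reads in each CTCF ChIP sample. Depth and the kind of library went together in these samples and cannot be told apart.

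CTCF ChIP yielded more and wider peak regions than CTCF M-ChIP-NC. There were 22261 and 30470 distinct regions in CTCF M-ChIP-NC replicates 1 and 2, and 40046 and 49633 in CTCF ChIP replicates 1 and 2. The groups did not overlap, with 26366 ± 5805 (SD, n = 2) against 44840 ± 6779 (SD, n = 2) regions. Median widths were 197 and 238 bp against 276 and 322 bp, again without overlap. With the number of regions matched the difference in width went from 81.5 to 133 bp. The exact permutation test (two-sided) gave p = 0.333 for each of these differences (adjusted p = 0.667 over 8 measures). With 2 against 2 samples 0.333 is the smallest p this test can give, so no measure could pass the threshold.

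The order of the groups in enrichment depended on how enrichment was computed. The deposited fold enrichment, (reads + 1)/(background + 1), had a median of 7.22 and 7.84 in CTCF M-ChIP-NC and of 10.05 and 11.5 in CTCF ChIP, a difference of 3.25 between the means (exact permutation p = 0.333). With the number of regions matched between samples this difference was 7.17. The plain ratio of summit reads to local background had a median of 22.2 and 20.2 in CTCF M-ChIP-NC and of 16 and 17.5 in CTCF ChIP. The groups did not overlap on either scale, and CTCF ChIP was the higher group on the first and the lower group on the second. Over the all-4 regions alone the plain ratio was 22.5 and 21 in CTCF M-ChIP-NC and 20.1 and 23.9 in CTCF ChIP, where the groups overlapped.

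**Figure D1:**
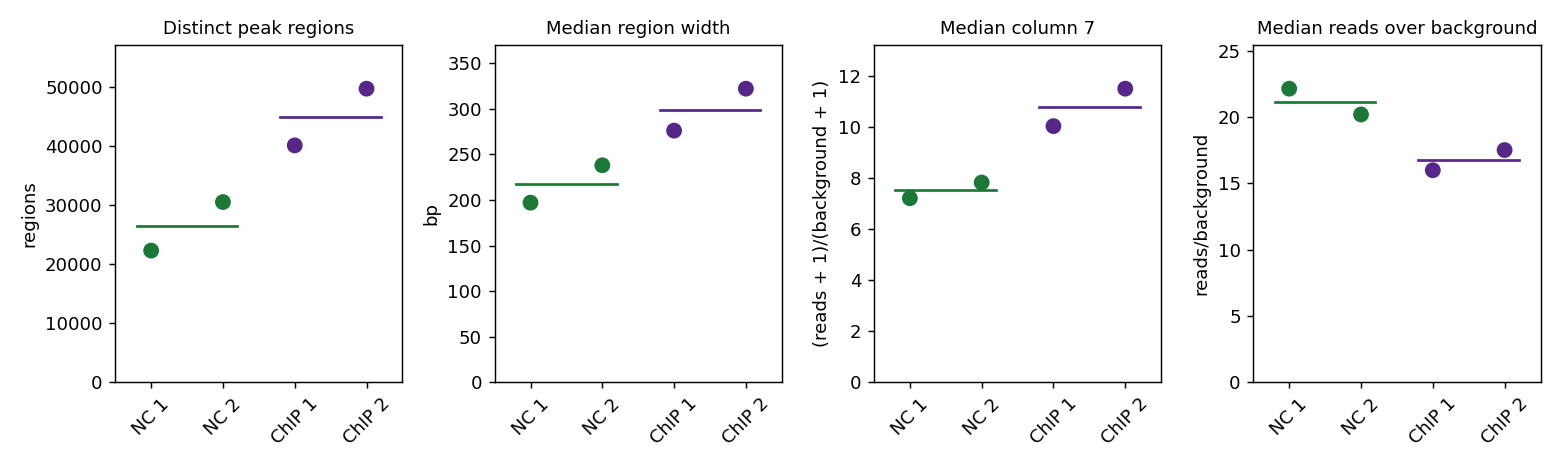
Per-sample values of the distinct peak regions: number of regions, median width in bp, median fold enrichment as deposited (column 7) and median ratio of summit reads to local background. Points are samples (NC 1 and NC 2, CTCF M-ChIP-NC; ChIP 1 and ChIP 2, CTCF ChIP), lines are group means, and all axes start at 0. CTCF ChIP lies higher in the first 3 panels and lower in the fourth.

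The regions of all 4 samples were centred on CTCF motifs. A match lay within 100 bp of the strongest summit in 90.9% and 91.0% of regions in CTCF M-ChIP-NC and in 92.1% and 90.3% in CTCF ChIP, so that the groups overlapped (difference 0.19 percentage points, exact permutation p = 1). With the number of regions matched the shares were 90.9% and 95.2% against 95.6% and 95.6%, where the groups no longer overlapped (difference 2.55 points, exact permutation p = 0.333). In windows of the same length 2 kb to each side the share was 8.30 to 8.55% over the 4 samples. The lowest 10% of regions by −log10 q held a match in 70.1% and 68.4% of cases in CTCF M-ChIP-NC and in 79.6% and 74.4% in CTCF ChIP. In the highest 10% the share was 96.3% to 97.6% in all 4 samples. The median distance from summit to motif centre was 22 bp in both CTCF M-ChIP-NC samples and 18 and 17 bp in CTCF ChIP (exact permutation p = 0.333).

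Promoter share, overlap with open chromatin and GC content did not separate the groups. Regions within 3 kb of a transcription start made up 30.5% and 29.3% of CTCF M-ChIP-NC and 30.1% and 30.6% of CTCF ChIP (exact permutation p = 0.667). Regions that overlapped a peak of both ATAC samples made up 6.61% and 5.69% against 5.73% and 5.80% (exact permutation p = 1). Median GC content was 49.0% and 48.0% against 48.5% and 48.0% (exact permutation p = 1).

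Nearly every CTCF M-ChIP-NC region was found again in CTCF ChIP, but not the reverse. Of the regions of CTCF M-ChIP-NC replicate 1, 96.5% overlapped a region of CTCF ChIP replicate 1 and 97.7% a region of replicate 2. For CTCF M-ChIP-NC replicate 2 the shares were 94.0% and 97.5%. In the other direction, 53.5% of the regions of CTCF ChIP replicate 1 and 43.7% of those of replicate 2 overlapped CTCF M-ChIP-NC replicate 1, and 71.5% and 59.7% overlapped CTCF M-ChIP-NC replicate 2. Within CTCF M-ChIP-NC, 88.4% of replicate 1 overlapped replicate 2 and 64.5% of replicate 2 overlapped replicate 1. Each CTCF M-ChIP-NC sample thus shared more of its regions with either CTCF ChIP sample than with its own replicate. The CTCF ChIP lists were also the longer ones, and the part of list length in these shares was not tested.

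The all-4 class made up 37.9% of the union regions, the ChIP-only class 16.7%, and the NC-only class 0.00774%. The largest of the other patterns were regions of CTCF ChIP replicate 2 alone (9314) and of both CTCF ChIP samples with CTCF M-ChIP-NC replicate 2 (8976). Regions of a single CTCF M-ChIP-NC sample were few, 502 in replicate 1 and 717 in replicate 2. They also held few motifs. A match was found in 11.8% of those of replicate 1 (95% Wilson interval 9.22 to 14.9%) and in 36.8% of those of replicate 2 (33.4 to 40.4%). Regions of CTCF ChIP replicate 2 alone held a match in 79.1% (78.2 to 79.9%), and those of replicate 1 alone, 800 in number, in 73.3% (70.1 to 76.2%). Intervals here cover counting error only. The class sizes rest on list length, on the overlap rule and on which samples are counted. With the number of regions matched between samples the NC-only class held 802 regions and the ChIP-only class 948. With 50% reciprocal overlap the NC-only class held 494. Without CTCF M-ChIP-NC replicate 1 or 2 the NC-only class held 721 or 506 regions, and without CTCF ChIP replicate 2 it held 75. The ChIP-only class held 17629 regions without CTCF M-ChIP-NC replicate 2 and 17983 without CTCF ChIP replicate 1.

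**Figure D2:**
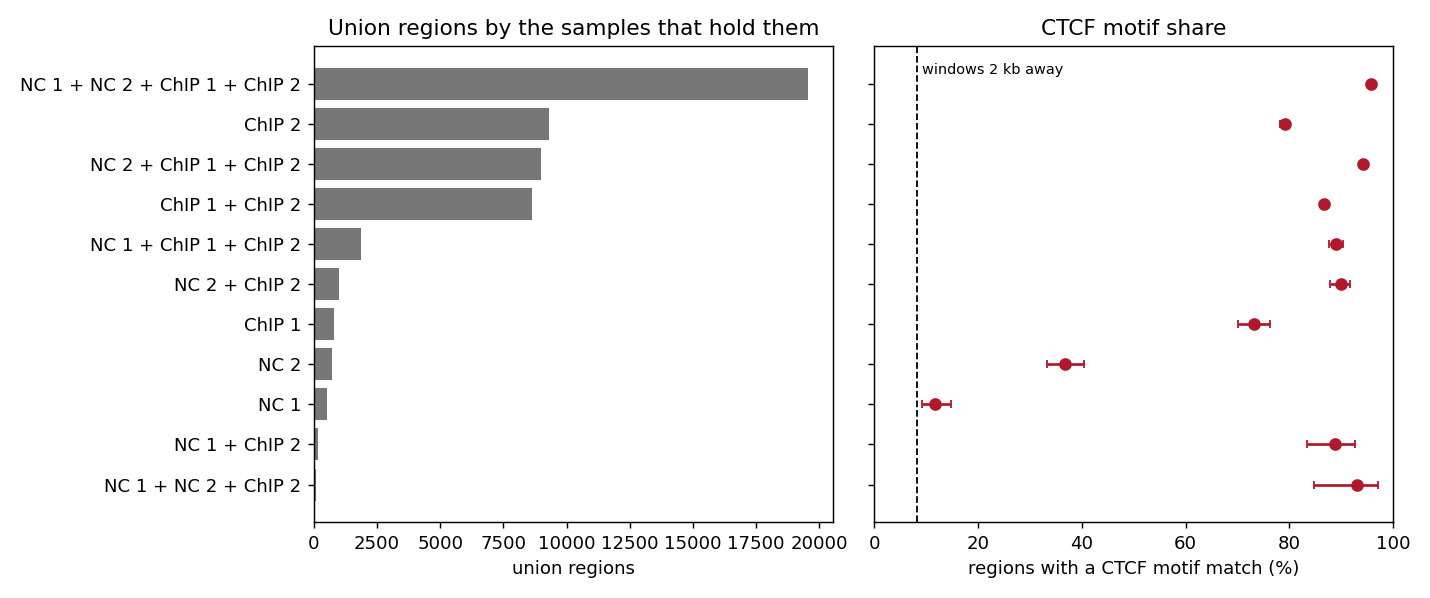
Left, number of union regions by the samples that held them (NC, CTCF M-ChIP-NC; ChIP, CTCF ChIP), for patterns with at least 50 regions. Right, percent of these regions with a CTCF motif match within 100 bp of the strongest summit, with 95% Wilson intervals; the dashed line at 8.22% is the share in windows 2 kb away. Regions of CTCF M-ChIP-NC replicate 1 alone lie nearest to that line.

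Whether a Nextera peak was found in CTCF M-ChIP-NC went with its strength. Of the regions held by both CTCF ChIP samples with a mean fold enrichment under 5, 1.16% were also in both CTCF M-ChIP-NC samples (865 regions). The share was 20.6% from 7.5 to 10, 55.0% from 10 to 15, 86.9% from 15 to 20 and 97.4% from 20 to 30. All 47 regions at 30 and over were in both. In the other direction, regions of both CTCF M-ChIP-NC samples were in both CTCF ChIP samples in 96.0% of 556 cases even at a fold enrichment under 5, and in 99.2% from 5 to 7.5. The curve of CTCF M-ChIP-NC replicate 2 lay above that of replicate 1 in each bin under 30.

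**Figure D3:**
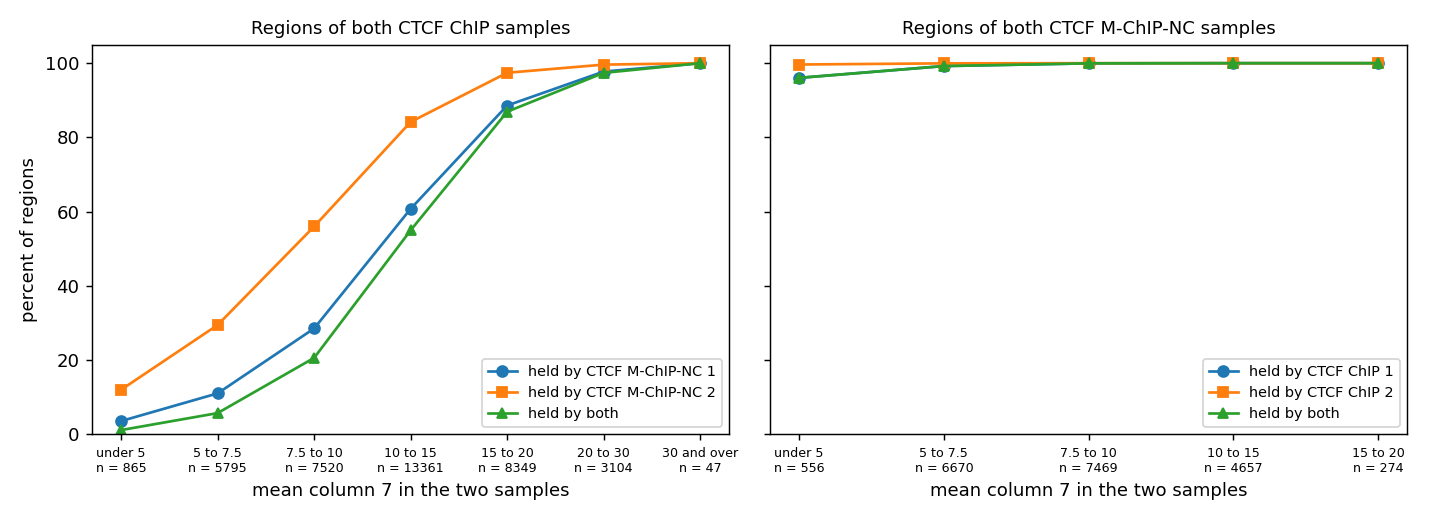
Percent of union regions found in the other group by mean fold enrichment (column 7) in the group that held them. Left, regions of both CTCF ChIP samples found in CTCF M-ChIP-NC; right, regions of both CTCF M-ChIP-NC samples found in CTCF ChIP, for bins of at least 20 regions. The curve for both samples together climbs from 1.16% to 100% on the left and starts at 96.0% on the right.

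The classes are set by the same lists that give fold enrichment, reads and width, so these values describe the classes and were not tested. In CTCF ChIP replicates 1 and 2 the all-4 regions had a median of 40 and 66 summit reads and a median fold enrichment of 13.4 and 17.2. The ChIP-only regions had 14 and 22 reads and a fold enrichment of 6.27 and 8.38. In CTCF M-ChIP-NC the all-4 regions had a median of 10 and 15 reads. The median width of union regions was 425 bp in the all-4 class, 268 bp in the ChIP-only class and 198.5 bp in the NC-only class.

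Most ChIP-only regions lay near or under the calling limit of CTCF M-ChIP-NC once their reads were scaled by the ratio of backgrounds. Scaled to replicate 1, their median was 3.35 reads, and 64.8% were under the smallest summit called there. Scaled to replicate 2, it was 4.09 reads, with 47.2% under. For the all-4 regions 3.09% and 1.10% were under these limits. The reads seen in the all-4 regions were 1.04 and 1.2 times the scaled value at the median.

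The NC-only class is small enough to give whole. The intergenic region chr17:36231463-36231756, 1994 bp from the nearest start, that of Gm18604, had 9 and 11 summit reads in CTCF M-ChIP-NC replicates 1 and 2, fold enrichments of 6.73 and 7.29, and no motif match. The region chr6:85002824-85002953 lay in an intron of Exoc6b, which encodes an exocyst subunit, with 5 and 7 reads. The intergenic region chr5:15006824-15007050, nearest to Gm17019, had 4 and 5 reads. The region chr2:23098204-23098373 overlapped an exon of Acbd5, a gene of peroxisomal lipid handling, with 5 and 4 reads. The last 3 had 4 to 7 reads, close to the fewest that were called, and these are the 3 that held the motif matches printed above.

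The strongest ChIP-only regions were well above the Nextera calling limit. The highest mean was at chr3:157359019-157359372, intergenic and 6626 bp from Gm22458, with 41 and 52 reads in CTCF ChIP and no motif match. The next, chr1:178187844-178188128, covered the start of Desi2, which encodes a deubiquitinating enzyme, with 34 and 50 reads, a motif match and a peak in 6 of the 8 accessibility samples. The third, chr12:20935554-20935735, was intergenic, with 44 and 31 reads and no match. Of these strongest regions only the first overlapped converted CTCF M-ChIP peaks, and it did so in both samples. At the low end stood chr12:113222849-113223053 (fold enrichment 2.26 and 3.06), chr4:138316525-138316657 in an intron of Pink1 (2.82 and 2.36) and chr11:3153889-3154188 in an intron of Sfi1, the gene of a centrosome protein (2.30 and 2.44). Of these 3 the first and the second held a match.

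Among the all-4 regions the highest mean fold enrichment was at chr8:20424733-20425010, over the start of 2610005L07Rik, with 37 and 46 reads in CTCF M-ChIP-NC and 140 and 249 in CTCF ChIP. It was followed by chr1:85323020-85323565 in an intron of Gm2619 (72, 116, 275 and 355 reads) and by the intergenic chr9:123925328-123925732 (77, 82, 264 and 427 reads). Among the 3 lowest were one in an exon of Lrrn4cl, chr19:8851733-8852001 (4, 4, 8 and 12 reads), and one beside Tomm40l, chr1:171222678-171222939 (7, 8, 12 and 20 reads). In these values, ordered as CTCF M-ChIP-NC replicates 1 and 2 and then CTCF ChIP replicates 1 and 2, the Nextera samples had more reads at each region.

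Of the study's own loci, a region at Klf4 and another at Slc5a8 were in all 4 samples, and the regions at Pisd-ps1 were not. The region chr4:55530284-55530605 in an exon of Klf4 was held by all 4 samples, with 7 and 10 reads in CTCF M-ChIP-NC and 21 and 49 in CTCF ChIP. The intergenic region chr10:88884775-88885256, 736 bp from the start of Slc5a8, was held by all 4 samples, with 10, 15, 30 and 58 reads in the same order. The intergenic region chr11:3123054-3123515, 2389 bp from the start of Pisd-ps1, a pseudogene of a phosphatidylserine decarboxylase, was called in CTCF M-ChIP-NC replicate 2 (10 reads) and in both CTCF ChIP samples (54 and 107 reads) but not in CTCF M-ChIP-NC replicate 1. An intron of Pisd-ps1 held a ChIP-only region, chr11:3128341-3128524, with 29 and 27 reads and no motif match. CTCF ChIP replicate 2 alone held 3 more regions, 1 in an intron of Klf4 (19 reads) and 2 in intergenic sequence beside Pisd-ps1 (18 and 25 reads).

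Both classes were rich in CTCF motifs, and the all-4 class more so. A match was found in 95.7% of all-4 regions (95% Wilson interval 95.4 to 96.0%) and in 86.8% of ChIP-only regions (86.0 to 87.4%), against 8.82% and 8.18% in the windows 2 kb away. The median score of the matches was 17.9 in the all-4 class and 15.5 in the ChIP-only class. The median distance from summit to motif was 15 and 19 bp. A CpG at motif position 15, counted from 1 at the motif's 5′ end, was present in 38.6% of all-4 matches (37.9 to 39.3%) and 27.7% of ChIP-only matches (26.7 to 28.7%). Among promoter regions of the ChIP-only class 83.3% held a match, and among its other regions 88.3%.

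The classes also differed in repeats and little in gene context. The 200 bp around the summit was mostly repeat-masked in 20.7% of all-4 regions (20.2 to 21.3%) and in 32.7% of ChIP-only regions (31.7 to 33.7%). Promoters made up 31.2% and 30.5%, and median GC content was 49.5% and 48.0%. Of genes with a promoter region and a TPM value, 53.5% in the all-4 class and 56.9% in the ChIP-only class had at least 1 TPM, against 28.2% of all genes.

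Few regions of either class overlapped a peak of a single accessibility sample, which is what open means here unless stated otherwise. A region without a called peak need not be closed. The authors' merged M-ATAC list overlapped 14.7% of the ChIP-only regions. For each of the 8 accessibility samples (M-ATAC replicates 1 to 4, M-ATAC-NC replicates 1 and 2, ATAC replicates 1 and 2), between 8.76% and 12.9% of all-4 regions and between 5.56% and 8.43% of ChIP-only regions overlapped a peak. The all-4 share was higher in 8 of 8 samples, with means of 10.5% ± 1.53 and 6.73% ± 1.06 (SD, n = 8) and a difference of 3.81 percentage points (range 2.95 to 4.74). The exact sign-flip test (two-sided) gave p = 0.00781, the smallest it can give with 8 samples. It covers the spread between accessibility samples only, and not that between the CTCF samples that set the classes. M-ATAC-NC comes from aliquots of the M-ATAC DNA, so the 8 samples are not all independent. Without M-ATAC-NC the difference was 3.76 points, positive in 6 of 6 samples (exact sign-flip p = 0.0312, the smallest it can give with 6). The paper describes M-ATAC in duplicate while 4 replicates are labelled, so whether these 6 were separate preparations is not known. The difference was 1.74 points without CTCF M-ChIP-NC replicate 1 and 1.93 points with the number of regions matched between samples. None of the 4 NC-only regions overlapped a peak of these samples, which for 4 regions allows a share of up to 60.2% (exact 95% upper bound), and 1 of the 4 overlapped a peak of the authors' merged M-ATAC list. With a count of 0 in every sample, no test against this class is informative.

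The difference in openness between the all-4 and ChIP-only classes did not keep its direction within bins of strength. Among regions with a mean CTCF ChIP fold enrichment under 7.5 the mean difference, all-4 minus ChIP-only, was -0.37 points, with 1 of 8 samples above 0 (exact sign-flip p = 0.102). From 7.5 to 10 it was -1.07 points, with 8 of 8 samples below 0 (exact sign-flip p = 0.00781, adjusted p = 0.0117 over 3 bins). From 10 to 15 it was 1.57 points, with 8 of 8 samples above 0 (exact sign-flip p = 0.00781, adjusted p = 0.0117). Without M-ATAC-NC the 3 differences were -0.36, -1.19 and 1.21 points, with an adjusted exact sign-flip p of 0.281, 0.0469 and 0.0469. This split and the setting without M-ATAC-NC were chosen after seeing the data. The p-values of the bins also cover the spread between accessibility samples only, and not counting error over regions. In the 3 bins the all-4 class held 342, 1550 and 7347 regions, and the ChIP-only class 4519, 2712 and 1342. Regions without a motif match were more often open than those with a match in both classes, 12.5% against 3.86% in the ChIP-only class and 14.1% against 6.74% in the all-4 class (peaks of both ATAC samples).

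**Figure D4:**
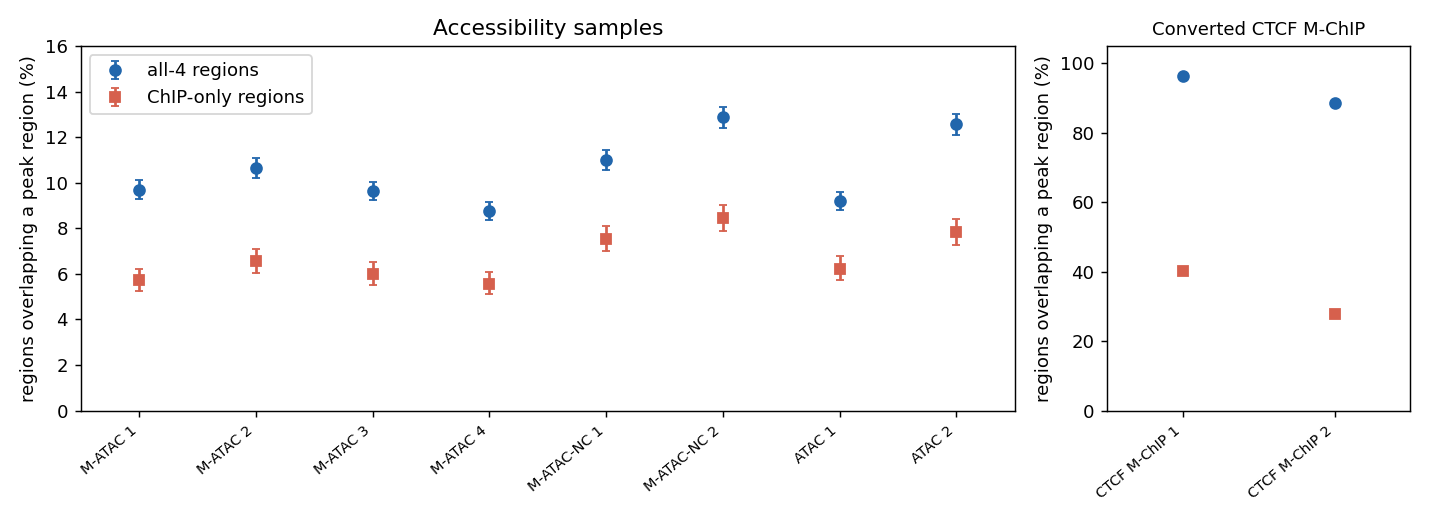
Percent of all-4 regions (circles) and ChIP-only regions (squares) that overlap a peak region, with 95% Wilson intervals, for the 8 accessibility samples (left) and the 2 converted CTCF M-ChIP samples (right), on axes of different range. The all-4 regions lie higher in each sample shown, by 2.95 to 4.74 points on the left.

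The converted CTCF M-ChIP samples held most all-4 regions and fewer ChIP-only regions. They overlapped 96.4% and 88.6% of the all-4 regions, 40.3% and 27.8% of the ChIP-only regions, and 1 of the 4 NC-only regions each. These samples come from the tagged DNA that also gave CTCF M-ChIP-NC and are no independent replicate of it. Of the ChIP-only regions 52.1% (51.1 to 53.2%) were in at least 1 CTCF M-ChIP sample. In the bin of CTCF ChIP fold enrichment from 7.5 to 10, the shares were 84.3% and 66.1% for all-4 regions and 49.3% and 33.5% for ChIP-only regions.

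CpGs inside CTCF motifs were more methylated in ChIP-only than in all-4 regions, as read in CTCF M-ChIP. In the authors' table of merged CTCF M-ChIP replicates, 25.5% of 15391 reads at 2134 cytosines of ChIP-only regions were methylated (95% Wilson interval 24.9 to 26.2%), against 7.99% of 307763 reads at 24419 cytosines of all-4 regions (7.89 to 8.09%). Only cytosines with at least 5 reads were used, which left 1217 of the 8650 ChIP-only regions and 9345 of the 19567 all-4 regions, with a median of 6 and 11 reads a cytosine. At a CTCF ChIP fold enrichment of 10 to 15 the values were 28.2% (26.8 to 29.7%) and 9.51% (9.32 to 9.71%). The M-ATAC table covers other cytosines, those of the regions that lie in M-ATAC peaks, inside motifs or not. There methylation was 1.93% in ChIP-only and 2.16% in all-4 regions. The tables hold merged replicates, so no spread between samples can be given. The intervals count each read as independent, although reads share cytosines and regions, so they are likely too narrow. Motif score kept its order within bins of fold enrichment too (10 to 15: 15.9 in ChIP-only and 17.8 in all-4 regions), as did repeat content (33.7% and 19.6% mostly repeat-masked). The bins are wide, so the classes can still differ in strength inside them. From 10 to 15 the median width was 315 bp in ChIP-only and 412 bp in all-4 regions.

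**Figure D5:**
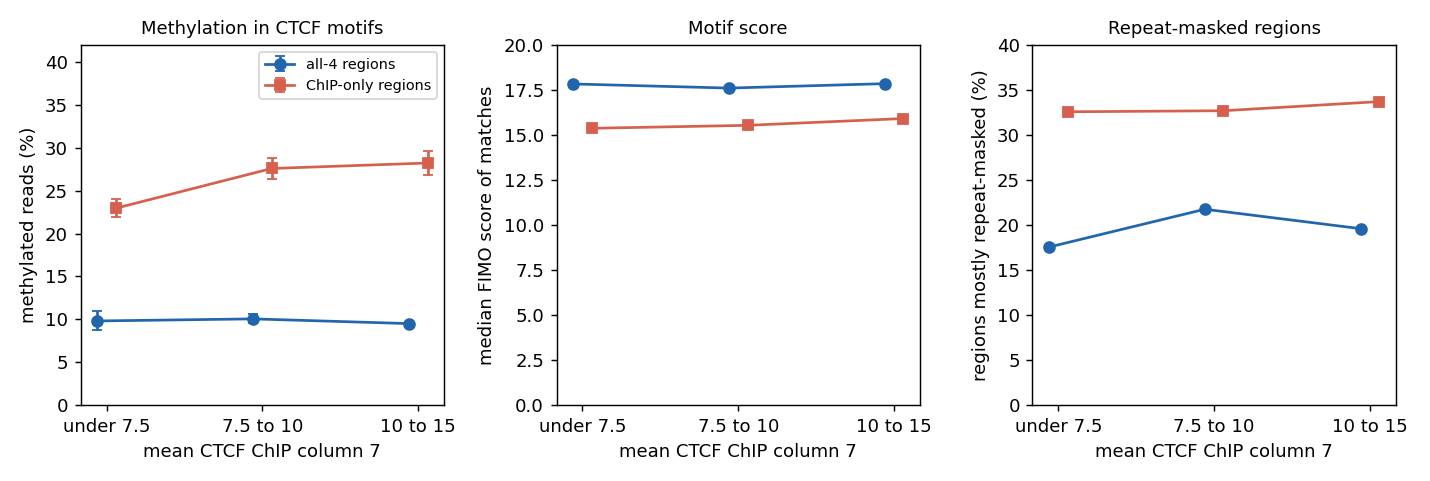
All-4 regions (circles) and ChIP-only regions (squares) in 3 bins of mean CTCF ChIP fold enrichment (column 7): percent of methylated reads at CpGs in CTCF motifs with 95% Wilson intervals (merged CTCF M-ChIP), median score of motif matches, and percent of regions mostly repeat-masked. The intervals count each read as independent. ChIP-only regions lie higher in methylation, 22.9 to 28.2% against 9.51 to 10.1%, and in repeats, and lower in motif score, in each bin.

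Relative enrichment at the 19567 all-4 regions was compared between the groups with each sample centred on its median of log2 fold enrichment. No region passed the limma test at an adjusted p of 0.05, in either direction (0% of 19567 called higher and 0% called lower in CTCF ChIP, smallest adjusted p 0.170). At an unadjusted limma p under 0.05, 628 regions were higher (3.21%) and 1099 lower (5.62%) in CTCF ChIP. With quantile normalization these were 846 and 879, so the imbalance depends on the scaling. The sets described next are those of median centring. Of the 628, 12.7% overlapped a peak of both ATAC samples, and of the 1099, 3.82%, against 7.05% of all regions tested. Motif share was 92.7% in the first set, 95.8% in the second and 95.7% in all. The mean CTCF M-ChIP-NC reads had a median of 8, 15 and 12.5 in the same order, and their part in these shares was not tested. Both sets rest on unadjusted p-values, which some unchanged regions also reach. Without centring, 13112 regions were called higher in CTCF ChIP and 0 lower, with a median difference of 0.85 on the log2 scale. The deposited fold enrichment adds 1 to reads and to background, so its level depends on depth. As the plain ratio, the sample medians of these regions overlapped, 22.5 and 21 in CTCF M-ChIP-NC against 20.1 and 23.9 in CTCF ChIP. With centring, leaving out CTCF M-ChIP-NC replicate 1 gave 323 higher and 333 lower calls, and leaving out replicate 2 gave 495 and 753. The remaining CTCF M-ChIP-NC sample is then assumed to vary like the CTCF ChIP samples. Without CTCF ChIP replicate 1 there were 0 calls, and without replicate 2 there was 1 call, lower.

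The 3 regions with the smallest p for higher enrichment in CTCF ChIP had 4 to 6 reads in CTCF M-ChIP-NC. Higher in CTCF ChIP were the intergenic chrX:159409303-159409651, 859 bp from Gm15187, with 4, 4, 33 and 50 reads in the order used above (log2 difference 1.45 ± 0.24 SE, limma adjusted p = 0.170), the start of Fam228b and Pfn4, chr12:4768804-4769250, with 6, 5, 58 and 80 reads (1.24 ± 0.25 SE, limma adjusted p = 0.298), and an exon over the start of Tle1, chr4:72199057-72199404, with 4, 5, 29 and 54 reads (1.12 ± 0.23 SE, limma adjusted p = 0.298). Pfn4 encodes a profilin and Tle1 a transcriptional corepressor. Lower in CTCF ChIP were an intron of Ppfia2, which encodes a synaptic scaffold protein, chr10:106609033-106609378, with 9, 10, 7 and 13 reads (-1.48 ± 0.25 SE, limma adjusted p = 0.170), the intergenic chr3:7331770-7332204 with 7, 12, 9 and 11 reads (-1.30 ± 0.24 SE, limma adjusted p = 0.196) and the intergenic chr12:87000648-87001102 with 18, 29, 35 and 58 reads (-1.31 ± 0.24 SE, limma adjusted p = 0.196). None of these passed the test.

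Genes of pluripotency, of CTCF and cohesin, and of clustered families were described by whether a region of each class lay within 3 kb of a start. Over all 21924 protein-coding genes, 19.9% had an all-4 region, 9.13% a ChIP-only region and 0.00456% (1 gene) an NC-only region there. Classes exclude each other by region and not by gene, so a gene can count in several.

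Of 20 pluripotency genes 5 had an all-4 region and 2 a ChIP-only region. The all-4 genes were Klf4, Sox2, Myc, Mycn and Tdgf1. The ChIP-only regions were at Lin28a, which encodes an RNA-binding protein that blocks let-7 maturation, with 36 and 49 reads in CTCF ChIP replicates 1 and 2, and at Sall4, a zinc finger factor of the stem cell network, with 15 and 42 reads. Both held a motif match.

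Of 16 genes of CTCF and cohesin 5 had an all-4 region and 2 a ChIP-only region. The all-4 genes were Smc3, Stag1 and Stag2, which encode cohesin subunits, Pds5b, a cohesin regulator, and Esco1, which acetylates cohesin. The ChIP-only regions were within 3 kb of the start of Ctcf itself, with 51 and 35 reads and no motif match, and at Pds5a, with 12 and 26 reads and a match.

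Of 23 imprinted and X inactivation genes 7 had an all-4 region (Zim1, Peg3, Peg10, Meg3, Grb10, Gnas and Ftx) and 2 a ChIP-only region. These were Mest, a paternally expressed gene with a pair of such regions (12 and 38 reads, and 17 and 19 reads), and Xist, the RNA that coats the inactive X chromosome (10 and 12 reads).

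Of 39 Hox genes, which lay out the body axis, 12 (30.8%) had an all-4 region and 0 a ChIP-only region. Some genes of a cluster shared regions, as Hoxa3 and Hoxa6 or Hoxc5 and Hoxc10 did, since every annotated transcript start of a gene counted.

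The clustered protocadherins, cell surface proteins whose promoters are chosen through CTCF, had a region of any pattern at 52 of 56 genes (92.9%, against 40.6% of protein-coding genes). All-4 regions were at 20 genes (35.7%) and ChIP-only regions at 16 (28.6%). The strongest ChIP-only regions were at Pcdha7 (27 and 49 reads), Pcdhb8 (26 and 48), Pcdhb20 (20 and 39), Pcdhb22 (20 and 37) and Pcdha11 (19 and 22), of which Pcdhb8 and Pcdhb20 had no motif match. These genes are near-identical copies in places, and reads of low mapping quality were removed by the authors, so the values of single copies are uncertain.

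Of 76 ribosomal protein genes 20 (26.3%) had an all-4 region and 12 (15.8%) a ChIP-only region. The strongest ChIP-only regions were at Rpl6 (25 and 39 reads, no match), Rpl24 (22 and 32), Rpl14 (19 and 29), Rpl35 (17 and 25) and Rps7 (12 and 23). No gene of these 6 lists had an NC-only region.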

How the data were processed

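CTCF ChIPmentation was performed in KH2 mESC with the Nextera transposase or, unconverted, with EZ-Tn5 carrying methylated adaptors (2 samples each). The authors trimmed reads with Trim Galore 0.4.4, aligned them to mm10 with bowtie2 or, for converted libraries, Bismark 0.18.1, removed reads of low quality and duplicates with SAMtools 1.3, and called peaks in each sample with Macs at a q-value of 0.01, without a control. The aligner of the unconverted controls is not given in the sources used here. The deposited peak lists give a score, a fold enrichment (ratio) and −log10 p- and q-values for each summit. For each cytosine the authors' methylation tables give read counts, methylated and unmethylated, and their percent, their motif list a FIMO score and p-value, and their expression table TPM, all of merged replicates.

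Rows were collapsed to distinct regions, keeping the strongest summit. Whole summit reads were solved from fold and −log10 p-value within 0.05. Regions were scanned on both strands with the CTCF matrix recovered from the deposited FIMO scores of 43074 matches, with their 5th percentile, 8.31, as the limit. Promoters were within 3 kb of a start of GENCODE M21. Repeat masking is that of the RefSeq GRCm38.p6 sequence, to which mm10 corresponds. Groups were compared by exact permutation tests, classes by exact sign-flip tests over accessibility samples, and all-4 regions by limma on log2(fold enrichment), median-centred, with Benjamini-Hochberg adjustment. Simulated data kept the mean of each all-4 region and gave every region the same spread between samples. On these, limma called 83% of 100 regions raised by 1 on the log2 scale and 100% of 100 lowered by 2, and 7 of 19367 unchanged regions. In the real data the spread was not set equal, so these shares need not hold there, and 0 calls do not show that no region differs.

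Members, classes and gene lists were chosen with earlier results of these data known. Named regions are the 3 with the highest and the 3 with the lowest mean fold enrichment of each class on chromosomes 1 to 19 and X, the 3 with the smallest limma p in each direction, the study's loci, and up to 5 genes of each list. An item that this rule names is not reported here. Alternatives were the number of regions matched between samples, a −log10 q of at least 5, 50% reciprocal overlap, every summit counted, a stricter motif limit, other centring, the replicate block, and each replicate left out. KLF4 peak lists were not used. Statistics used limma 3.58.1 in R 4.3.3 and scipy 1.17.1 with pandas 2.3.3 and numpy 2.4.6 in python 3.11.15. Sequences were read with pyfaidx 0.9.0.4 and samtools 1.23.1, and plots drawn with matplotlib 3.10.9.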

Additional observations from a re-analysis of the deposited data

Results flagged for a closer look

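Nextera libraries and unconverted methylated-adaptor libraries differed in opposite directions in CTCF ChIP and in ATAC for 2 measures. Nextera minus methylated adaptor was 81.5 bp in median region width for CTCF ChIP and -55 bp for ATAC against M-ATAC-NC, with every Nextera sample on the same side in each assay. For median fold enrichment it was 3.25 for CTCF ChIP and -0.82 for ATAC. The difference between the assays was not tested, and transposase, adaptor, library preparation and depth cannot be told apart. As the plain ratio of reads to background, the second measure was -4.42 for CTCF ChIP.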

How the results depend on the processing

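Of 196 recomputed values 14 reversed, 1 lost its call, 50 moved beyond the spread or interval of the value reported (counts by over 1.5 times), and 131 kept their direction and call or stayed within it. Such values can still differ in size. The causes were not tested unless the alternative's own construction shows them. With 2 samples a group the exact test between groups cannot reach the threshold. Depth limits what an absent CTCF M-ChIP-NC peak shows, since the smallest summit called there had 4 reads.

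Differences below are CTCF ChIP minus CTCF M-ChIP-NC. The fold enrichment reversed to -4.42 as reads over local background, chosen after seeing the data. The motif share reversed to -2.08 at −log10 q of at least 5 and -2.99 under the stricter motif limit, the promoter share to -0.14 at that q, and with the number of regions matched the open share became 0.793 and GC content 1. Leaving out 1 replicate gave -0.69 to 1.08 for the motif share, -0.85 to 0.0691 for the open share, -0.15 to 1.08 for the promoter share and -0.75 to 0.25 for GC content.

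With 50% reciprocal overlap the NC-only class held 494 regions, of which 95.7% had a motif and 87.1% were in CTCF M-ChIP on average; the ChIP-only motif share was 88.1%, and the open share of NC-only regions exceeded the others (all-4 minus NC-only -1.13, ChIP-only minus NC-only -4.83). With matched numbers the NC-only class held 802 regions (CTCF M-ChIP share 72.9%) and the ChIP-only class 948 (motif 93.2%, CTCF M-ChIP 79.7%), and the all-4 motif share was 96.4%. At −log10 q of at least 5 the NC-only class held 1 region, with a motif share of 0%, the ChIP-only values were 89.0% and 46.8%, and the all-4 motif share was 96.3%. Motif shares of ChIP-only and all-4 regions were 69.1% and 87.2% under the stricter limit and 87.5% and 96.3% anywhere in the region.

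At a CTCF ChIP fold enrichment under 7.5, 7.5 to 10 and 10 to 15, chosen after seeing the data, the open share of all-4 minus ChIP-only regions was -0.37, -1.07 and 1.57. Motif shares were 93.3%, 93.7% and 95.5% in all-4 and 85.1%, 87.8% and 90.1% in ChIP-only regions. CTCF M-ChIP shares were 59.9% and 75.2% in the first 2 bins of all-4 regions, and 21% and 60.3% in the first and the third of ChIP-only regions.

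Without 1 replicate, the ChIP-only class held 9550 to 17983 regions (motif 82.7 to 90.5%, CTCF M-ChIP 21.7 to 52.0%), the NC-only class 5 to 721 (12.3 to 86.7%, 0.791 to 40%), and the all-4 class had 95.1 to 95.7% and 85.3 to 92.5%. The open share of all-4 minus ChIP-only regions was 1.74 to 4.18, that of ChIP-only minus NC-only regions 1.45 to 6.72, and 1.45 without CTCF ChIP replicate 2 had an exact sign-flip p of 0.0625. Of the all-4 regions 0 to 495 were called higher and 0 to 753 lower by limma.

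Without centring of the deposited fold enrichment, whose level depends on depth, limma called 13112 higher. With the replicate block it called 1 higher and 1 lower. Over the all-4 regions, the difference between replicates 1 and 2 of CTCF M-ChIP-NC correlated at 0.0348 with that of CTCF ChIP. The replicate numbers thus do not show a pairing. With 2 pairs, the exact sign-flip test over pairs cannot go below 0.5.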

Other observations

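The motif matches printed for Exoc6b, Acbd5 and Pink1 share a run of 13 bases, GCCAGAAGAGGGC. It was searched on both strands in the 200 bp around each summit, a search chosen after the sequences were seen and given without a test. It was present in 10.8% of all-4 regions (95% Wilson interval 10.4 to 11.2%), in 11.1% of ChIP-only regions (10.4 to 11.8%), in 2 of the 4 NC-only regions and in 10.2% of all union regions, against 0.174% of windows of the same length 2 kb away. The intervals of the all-4 and ChIP-only classes overlapped. That comparison depends on the length of the run, since without its first base it was in 14.5% of all-4 regions (14 to 15%) and 20.1% of ChIP-only regions (19.3 to 21%). It overlaps the CTCF motif itself. Of the all-4 regions with the 13 bases 78.7% were mostly repeat-masked, and of the ChIP-only regions 85.6%. Few of them overlapped a peak of both ATAC samples, 0.71% of all-4 and 0.313% of ChIP-only regions. At a CTCF ChIP fold enrichment of 10 to 15, 48.0% of the 1508 regions with the 13 bases (45.5 to 50.5%) were in both CTCF M-ChIP-NC samples, against 55.9% of the 11853 without them (55.0 to 56.8%), with a median of 32.5 and 34.5 mean CTCF ChIP reads. Under 7.5, from 7.5 to 10 and from 15 to 20 the shares were 3.42% and 5.32%, 18.5% and 20.9%, and 84.5% and 87.3%, with intervals that overlapped. From 10 to 15, 44.2% of the 3258 mostly repeat-masked regions (42.5 to 45.9%) were in both CTCF M-ChIP-NC samples, against 58.5% of the 10103 others (57.5 to 59.4%). This gap was wider than that of the 13 bases, and the run was not told apart from repeat masking. Repeat families were not analysed here.

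Chromosome X stood apart from the autosomes. The all-4 class made up 19.2% of its 1206 union regions, against 35.9% to 40.6% on the 19 autosomes. At a CTCF ChIP fold enrichment of 10 to 15, 36.3% of 284 regions of X (30.9 to 42%) were in both CTCF M-ChIP-NC samples, against 55.4% of 13077 autosomal regions (54.5 to 56.2%). From 7.5 to 10 these shares were 10.4% and 20.9%, and from 15 to 20 they were 67.9% and 87.2%, with intervals that did not overlap. Under 7.5 they were 4.41% and 5.15%, with intervals that overlapped. From 10 to 15 the mean CTCF ChIP reads had a median of 25 on X and 35 on the autosomes, and the part of this in the result was not tested. On chromosome Y 0 of 18 union regions were all-4.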
